A study of Mus musculus with 16 samples.

Results

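The feedback and target genes of the ERK pathway followed here were examined across all cell groups of the series: Spry1, Spry2, Spry4, Spred1, Spred2, Dusp4, Dusp6, Etv4, Etv5 and Egr1. They were found by name, as every probe whose target name in the raw array table equals one of these symbols. This gave 17 probes for 10 of the 32089 genes on the array. Total RNA of mouse cells was measured on 16 arrays of Illumina MouseWG-6 version 1.1 BeadChips, with 2 biological replicates in each of 8 groups. By their names, the arrays lie on 4 slides. The induced pluripotent stem (iPS) lines were OSE #T8, OSE #T9, OSCE #8, OSCE #13 and OSCK, written below without the number sign, and the labels do not spell out the letters. The mouse embryonic fibroblasts (MEFs) carried a green fluorescent protein transgene driven by the Actin promoter or by the Pou5f1 promoter. The embryonic stem (ES) cells were of 1 line, R1. ES and iPS cells grew on mitomycin C-treated MEF feeders in medium with 15% serum and the cytokine LIF, so their RNA can hold feeder RNA, while MEFs grew in 15% serum without stated LIF. The study set out to compare iPS lines with ES cells and with MEFs.

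ERK is the last kinase of the Ras, Raf and MEK cascade that growth factor receptors switch on. Active ERK raises transcription of immediate-early genes such as Egr1 and of the ETS factors Etv4 and Etv5, and it also raises its own inhibitors: Sprouty and Spred proteins, which act on the cascade above ERK, and dual-specificity phosphatases of the Dusp family, which remove the phosphates from MAP kinases. In mouse ES cells, autocrine Fgf4 is a main source of ERK activity, and blocking it favours the undifferentiated state. Messenger RNA of these genes is often read as a proxy of pathway activity, but protein and phosphorylation were not measured here.

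Promoter windows, from 250 bases before to 50 after the transcription start site, were available from RefSeq (build GRCm38.p6) for 6 of the 10 genes, in 7 windows. Both windows of Etv5, the gene with the widest span of levels, are shown beside that of Spry1, which ran in the opposite direction between MEFs and ES cells. Capitals mark octamers of the kind bound by Capicua, a repressor that ERK signalling inactivates. The letters searched on both strands were TGAATGAA, TGAATGAG, TGAATGGA and TGAATGGG.
Etv5, chr16:22438319-22438618, minus strand: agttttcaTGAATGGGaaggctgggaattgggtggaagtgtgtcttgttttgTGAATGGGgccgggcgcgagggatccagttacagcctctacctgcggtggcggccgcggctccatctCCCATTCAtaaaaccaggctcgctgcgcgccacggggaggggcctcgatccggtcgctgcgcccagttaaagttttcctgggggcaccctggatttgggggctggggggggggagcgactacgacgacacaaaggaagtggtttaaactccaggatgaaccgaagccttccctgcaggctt
Etv5, chr16:22439521-22439820, minus strand: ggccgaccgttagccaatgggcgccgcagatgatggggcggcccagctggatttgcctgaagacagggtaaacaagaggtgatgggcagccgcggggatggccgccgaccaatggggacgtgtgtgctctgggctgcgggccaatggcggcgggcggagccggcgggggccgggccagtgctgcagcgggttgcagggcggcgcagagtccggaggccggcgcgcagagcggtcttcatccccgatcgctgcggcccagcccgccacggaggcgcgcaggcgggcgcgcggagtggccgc
Spry1, chr3:37639697-37639996, plus strand: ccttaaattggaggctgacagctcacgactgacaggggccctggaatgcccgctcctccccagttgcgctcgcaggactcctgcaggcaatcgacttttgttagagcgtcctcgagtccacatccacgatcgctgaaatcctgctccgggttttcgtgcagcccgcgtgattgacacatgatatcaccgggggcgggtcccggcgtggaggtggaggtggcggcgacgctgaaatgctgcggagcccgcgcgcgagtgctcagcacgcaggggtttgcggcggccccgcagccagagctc
The first Etv5 window held TGAATGGG 3 times, at 242, 198 and 131 bases before the start site, the last of these on the opposite strand. The second Etv5 window and the Spry1 window held none, nor did those of Spry2, Spred1, Spred2 and Dusp6. Of 32851 promoter windows of this length, 1.08% held TGAATGGG, 4.6% held at least 1 of these octamers and 0.058% held 3 or more. The form TGAATGGG was added to the search after the windows had been read, and TGAATGAA and TGAATGGA had matched no window of these genes, so these matches and shares describe letters and support no binding. The ETS core CCGGAA stood in 1 window, that of Spry2, and in 14.9% of all windows.

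Levels are log2 of background-corrected, quantile-normalized signal, and a level of 1 probe is not comparable with that of another. Detection means that an array gave a probe a detection p under 0.01. Between 35.5% and 38.8% of all probes were detected per array, and each value of these genes averages 17 to 58 beads. Of the 17 probes, 11 were detected on all arrays and 3 on none, and 14 passed the filter of detection on at least 2 arrays. Each gene is represented by its brightest probe unless stated otherwise. Thus 9 genes entered the tests, and Spry2, a Sprouty inhibitor of receptor tyrosine kinase signalling whose only probe lay between 4.26 and 4.67 on all arrays, was not above background in any group. Differences are from a limma fit over all 16 arrays, and "called" means a Benjamini-Hochberg adjusted p under 0.05 over 15642 genes. With 2 arrays per group, their number limits the precision. Labels were checked against marker genes: of 13 tested pluripotency markers, 13 were detected in each iPS line, 3 in Actin-GFP MEFs, 6 in Pou5f1-GFP MEFs and 13 in ES cells. Per the array names, OSCE 13, OSE T8 and OSE T9 lie on other slides than OSCK, OSCE 8, the MEFs and the ES cells, so slide and group cannot be told apart between those sets.

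**Figure D1:**
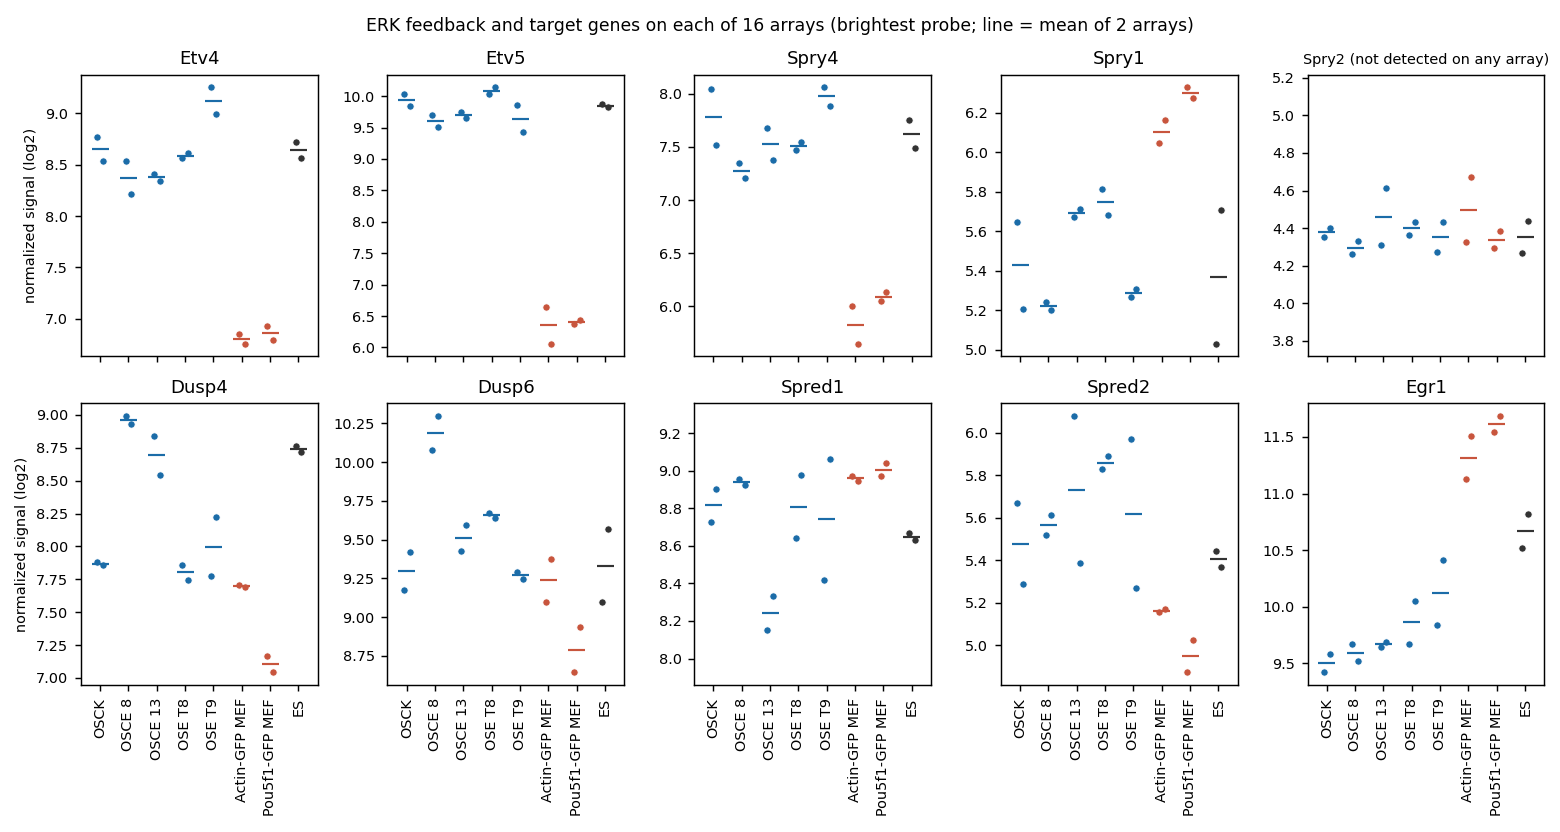
Normalized signal (log2) of the brightest probe of each of the 10 genes on each of the 16 arrays, with groups along the horizontal axis in the order iPS lines (blue), MEFs (red) and ES cells (grey); points are arrays, short lines are means of 2 arrays, and the vertical scale differs between panels. Etv5, Etv4 and Spry4 lie low on all 4 MEF arrays, Spry1 and Egr1 lie high there, and the lines separate most for Dusp4.

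The widest differences between pluripotent cells and fibroblasts were in the transcription factor targets Etv5 and Etv4, and the Sprouty inhibitor Spry4 moved with them. All were lower in MEFs than in ES cells, and in the iPS lines they stood near the ES level. Among the 9 tested genes, 6 were called between MEFs and ES cells, where 61.0% of all tested genes were called: 2 higher (30.7% of all genes) and 4 lower (30.3%). Their median difference was -0.35, against -0.02 over all genes. Between the 5 iPS lines and MEFs, 9 of 9 were called, where 70.0% of all genes were: 6 higher (35.0% of all genes) and 3 lower (35.0%). With median scaling the share of higher genes among all called was 38.8% in place of 50%, and Dusp6 was no longer called (adjusted p = 0.0617). When each line and each MEF type entered as a single averaged sample, these calls ended: Spred1 (adjusted p = 0.259), Dusp4 (0.0749) and Dusp6 (0.104) for lines against MEFs, and Dusp4 (0.082) and Egr1 (0.0549) for MEFs against ES cells. For lines against MEFs the median was 0.60 for the 9 genes and 0.03 over all genes. Between the lines and ES cells, 0 were higher (10.8% of all genes) and 2 lower (11.2%), together 2 of 9 against 22.0% of all genes, with medians of -0.01 and 0.01. The called shares of the 9 genes lie near the background for MEFs against ES cells and for lines against ES cells. The comparisons share arrays, so they are not independent of one another. In whole cultures, fewer cells of a type and less RNA per cell cannot be told apart.

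**Figure D2:**
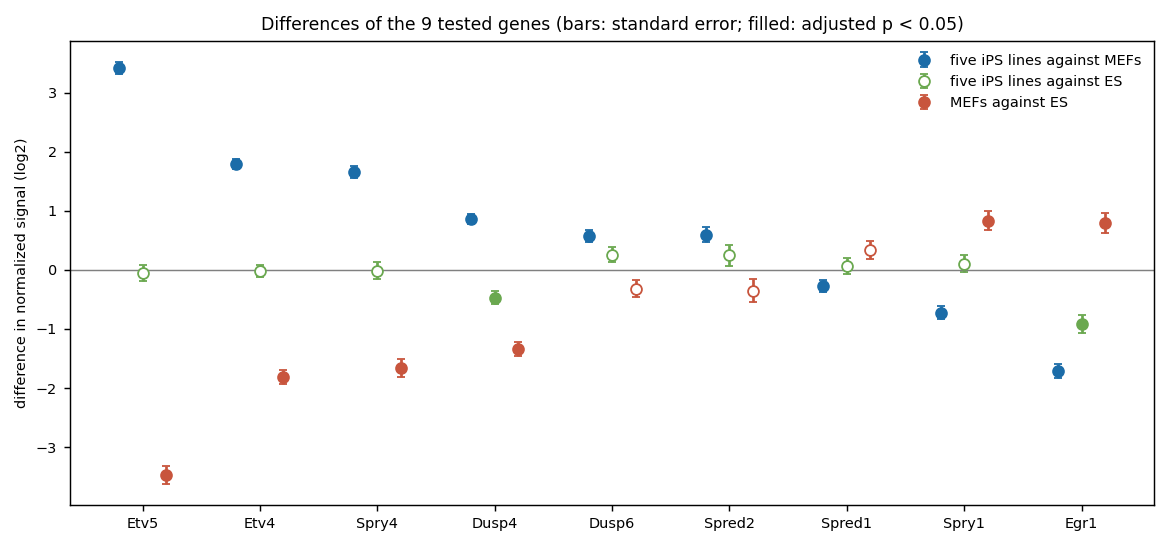
Difference in normalized signal (log2) of each of the 9 tested genes, for iPS lines against MEFs (blue), iPS lines against ES cells (green) and MEFs against ES cells (red); bars are standard errors, and filled points have an adjusted p under 0.05. Etv5 is at 3.42 for the lines against MEFs and at -3.47 for MEFs against ES cells, while only Egr1 and Dusp4 are filled for lines against ES cells.

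Etv5, an ETS factor of the PEA3 group, had the widest range of the 10 genes. Its level was 10.04 and 9.84 in OSCK, 9.70 and 9.50 in OSCE 8, 9.75 and 9.66 in OSCE 13, 10.04 and 10.14 in OSE T8, and 9.86 and 9.43 in OSE T9. In the MEFs it was 6.64 and 6.06 with the Actin transgene and 6.37 and 6.44 with the Pou5f1 transgene, against 9.87 and 9.82 in ES cells. No MEF array reached any line or ES array, and the ES values fell within the range of the lines. The difference of MEFs from ES cells was -3.47 ± 0.15 (log2, SE; 11.1-fold lower; adjusted p = 5.36e-11), and the lines were 3.42 ± 0.10 above MEFs (10.7-fold; adjusted p = 3.82e-13). Its span over the 8 group means, 3.73, was wider than that of 97.9% of tested genes. Between the lines and ES cells the difference was -0.05, with a 95% confidence interval of -0.34 to 0.24. The second Etv5 probe was detected on no array.

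Etv4, the closest relative of Etv5 among these genes, followed the same order between fibroblasts and pluripotent cells. In OSCK, OSCE 8 and OSCE 13 it lay between 8.22 and 8.77. OSE T8 gave 8.56 and 8.62 and OSE T9 9.25 and 8.99, against 6.76 to 6.93 over the 4 MEF arrays and 8.73 and 8.56 in ES cells. Both OSE T9 arrays lay above all other arrays of the series. The fall in MEFs against ES cells was -1.81 ± 0.12 (adjusted p = 4.74e-09), and the lines exceeded MEFs by 1.79 ± 0.08 (adjusted p = 3.45e-11). Lines and ES cells differed by -0.02 (95% interval -0.25 to 0.21), but OSE T9 alone was 0.48 ± 0.14 above ES cells (adjusted p = 0.0237), a comparison across slides. The OSE T9 call was lost with median scaling (adjusted p = 0.0827) and without ES replicate 2 (adjusted p = 0.167) or OSE T9 replicate 1 (adjusted p = 0.139).

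Spry4, a Sprouty inhibitor of receptor signalling, was read by 1 probe. Its levels were 8.04 and 7.52 in OSCK, 7.34 and 7.21 in OSCE 8, 7.68 and 7.38 in OSCE 13, 7.47 and 7.54 in OSE T8, and 8.06 and 7.89 in OSE T9. The MEF arrays gave 6.01 and 5.65 (Actin-GFP) and 6.05 and 6.13 (Pou5f1-GFP), against 7.76 and 7.49 in ES cells. MEF arrays were all below the others, OSCE 8 was the lowest line and OSE T9 the highest. The difference was -1.66 ± 0.15 for MEFs against ES cells (adjusted p = 1.79e-07) and 1.65 ± 0.10 for lines against MEFs (adjusted p = 1.37e-09). For lines against ES cells it was -0.01 (95% interval -0.30 to 0.28).

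Spry1, a second Sprouty inhibitor, went the other way. It was 5.65 and 5.21 in OSCK, 5.24 and 5.20 in OSCE 8, 5.67 and 5.71 in OSCE 13, 5.81 and 5.68 in OSE T8, and 5.27 and 5.31 in OSE T9. MEFs gave 6.04 and 6.16 (Actin-GFP) and 6.33 and 6.28 (Pou5f1-GFP), against 5.03 and 5.71 in ES cells. The MEF arrays lay above all others, and the ES replicates differed from each other by more than the lines differed from ES cells. Spry1 was higher in MEFs than in ES cells by 0.83 ± 0.16 (adjusted p = 0.000296) and lower in the lines than in MEFs (-0.73 ± 0.11; adjusted p = 2.11e-05). Its signal was close to background, since the lowest level of any detected probe lay between 4.89 and 5.05, and its second probe was detected on no array. So the Sprouty genes did not move as 1 group: Spry4 fell and Spry1 rose in MEFs, and Spry2 was not measured above background.

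Egr1, an immediate-early zinc finger factor that serum and growth factors induce within minutes, was the only 1 of the 9 genes called between iPS lines and ES cells without overlap of their arrays. It was 9.42 and 9.58 in OSCK, 9.67 and 9.52 in OSCE 8, 9.65 and 9.69 in OSCE 13, 9.68 and 10.05 in OSE T8, and 9.84 and 10.42 in OSE T9. MEFs gave 11.13 and 11.51 (Actin-GFP) and 11.54 and 11.68 (Pou5f1-GFP), against 10.52 and 10.82 in ES cells. All 10 line arrays were below both ES arrays, and all 4 MEF arrays were above them. The difference of the lines was -0.92 ± 0.15 from ES cells (1.89-fold lower; adjusted p = 0.000316) and -1.71 ± 0.11 from MEFs (3.28-fold lower; adjusted p = 2.42e-09). MEFs were 0.80 ± 0.17 above ES cells (adjusted p = 0.000648). With OSCK and OSCE 8 alone, the lines that share slides with ES cells, the difference from ES cells was -1.12 (adjusted p = 0.000155). With 1 mean per line as the replicate, the difference of the 5 lines from ES cells had an adjusted p of 0.225. In that setting a single ES line stood against 5 lines, and 115 of all genes were called, against 3447 in the reported fit. The summed linear signal of 15 fibroblast markers was 21050 to 30060 on line arrays, 66340 to 75600 on MEF arrays and 20340 to 23820 on ES arrays. Of these markers, 8 were called higher and 0 lower in lines against ES cells, and their part in the Egr1 levels was not tested. Time since the last change of medium was not given in the sources used here, and its part was not tested either.

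The Spred genes, inhibitors that keep Raf from being activated by Ras, moved little. Spred1 was 8.73 and 8.90 in OSCK, 8.96 and 8.92 in OSCE 8, 8.15 and 8.33 in OSCE 13, 8.64 and 8.98 in OSE T8, and 8.42 and 9.06 in OSE T9. MEFs lay between 8.94 and 9.04, and ES cells gave 8.67 and 8.63. Both OSCE 13 arrays lay below all others. The difference of the lines from MEFs was -0.27 ± 0.10 (adjusted p = 0.0272), with overlapping arrays, and it was lost when any 1 MEF array was left out (adjusted p 0.0539 to 0.0854). The second Spred1 probe gave -0.15 for this comparison (adjusted p = 0.255). For MEFs against ES cells the brighter probe gave 0.33 (adjusted p = 0.0684). That difference was called with the replicate number as a block (0.0321) and with slide as a random block (0.0302). The second probe gave 0.04 for MEFs against ES cells (adjusted p = 0.86), with overlapping arrays.

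Spred2 was dim, between 4.87 and 6.08 on all arrays. The line arrays ran from 5.27 to 6.08 with a median of 5.64, the MEF arrays from 4.87 to 5.17, and the ES arrays were 5.45 and 5.37. It was 0.60 ± 0.13 higher in the lines than in MEFs (adjusted p = 0.000872), with no overlap. The second Spred2 probe, detected on 13 arrays, gave 0.02 (adjusted p = 0.858), so this difference stands on 1 probe.

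On the brightest probes, the phosphatases Dusp4 and Dusp6 differed most among the iPS lines. Dusp4, a nuclear phosphatase of ERK and other MAP kinases, was 7.88 and 7.86 in OSCK, 8.99 and 8.93 in OSCE 8, 8.84 and 8.54 in OSCE 13, 7.86 and 7.75 in OSE T8, and 7.78 and 8.22 in OSE T9. MEFs gave 7.71 and 7.69 (Actin-GFP) and 7.16 and 7.04 (Pou5f1-GFP), against 8.76 and 8.72 in ES cells. OSCE 8 and OSCE 13 stood around the ES level, and OSCK, OSE T8 and OSE T9 lay between them and the MEFs. The difference of MEFs from ES cells was -1.34 ± 0.12 (adjusted p = 1.92e-07), and the lines were above MEFs by 0.87 ± 0.08 (adjusted p = 2.13e-07). The mean of the lines was -0.48 ± 0.11 from ES cells (adjusted p = 0.00548), with overlapping arrays. Line by line, the differences from ES cells were -0.87 ± 0.14 in OSCK (adjusted p = 0.00049), 0.22 in OSCE 8 and -0.05 in OSCE 13 (neither called), -0.94 ± 0.14 in OSE T8 (adjusted p = 0.000213) and -0.74 ± 0.14 in OSE T9 (adjusted p = 0.00159). The call of the mean was lost in several settings. Among them were the mean of all probes (-0.17; adjusted p = 0.0852) and OSCK with OSCE 8 alone (adjusted p = 0.0754). It was also lost without ES replicate 1 (-0.46) or 2 (-0.495), and with 1 mean per line as the replicate (-0.48). Those settings leave 1 ES sample.

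A second Dusp4 probe, detected on all arrays, gave partly other values against ES cells. It was 7.81 and 7.46 in OSCK, 8.78 and 8.55 in OSCE 8, 8.81 and 8.65 in OSCE 13, 8.23 and 8.22 in OSE T8, and 7.74 and 7.40 in OSE T9. MEFs gave 7.03 and 6.87 (Actin-GFP) and 6.47 and 6.34 (Pou5f1-GFP), against 8.31 and 8.19 in ES cells. On this probe OSCK (-0.61; adjusted p = 0.0105) and OSE T9 (-0.68; adjusted p = 0.00467) were lower than ES cells, as on the brighter probe. The mean of the lines differed from ES cells by -0.09 (adjusted p = 0.687) and OSE T8 by -0.03, while OSE T8 was called lower on the brighter probe. OSCE 13 was above ES cells by 0.48 (adjusted p = 0.0396) on the dimmer probe alone. Both probes gave OSCE 8 above OSCK (1.09 and 1.03, adjusted p = 6.46e-05 and 0.000203), OSE lines below OSCE 13 (-0.79 and -0.83, adjusted p = 0.000329 and 0.00037) and MEFs below ES cells (-1.34 and -1.58). The order of the lines differed between the probes: OSE T8 was the lowest line on the brighter probe (mean 7.80), and on the second (8.22) it lay above OSCK (7.64) and OSE T9 (7.57). The mean of all lines was called below ES cells by the brighter probe alone. The dimmest Dusp4 probe was detected on 4 arrays.

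Dusp6, a cytoplasmic phosphatase with specificity for ERK, was highest in OSCE 8. It was 9.17 and 9.42 in OSCK, 10.08 and 10.30 in OSCE 8, 9.43 and 9.59 in OSCE 13, 9.67 and 9.64 in OSE T8, and 9.29 and 9.25 in OSE T9. MEFs gave 9.10 and 9.38 (Actin-GFP) and 8.64 and 8.93 (Pou5f1-GFP), against 9.10 and 9.57 in ES cells. Both OSCE 8 arrays lay above all others and both Pou5f1-GFP MEF arrays below all others. OSCE 8 exceeded ES cells by 0.86 ± 0.17 (1.81-fold; adjusted p = 0.00132) and OSCK by 0.89 ± 0.17 (adjusted p = 0.0014), all on shared slides. The second Dusp6 probe gave 0.74 against ES cells (adjusted p = 0.00233) and 0.34 against OSCK (adjusted p = 0.158). The lines as a whole differed from ES cells by 0.25 on the brighter probe (95% interval -0.02 to 0.53, not called) and by 0.36 on the second (adjusted p = 0.0396). Lines were above MEFs by 0.57 ± 0.10 (adjusted p = 8.78e-05), with overlapping arrays, and by 0.66 on the second probe (adjusted p = 8.88e-06), without overlap. For MEFs against ES cells the brighter probe gave -0.32 (adjusted p = 0.0689). That difference was called with the replicate number as a block (0.0171) and with slide as a random block (0.0214). The second probe gave -0.29 for MEFs against ES cells (adjusted p = 0.0666).

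**Figure D3:**
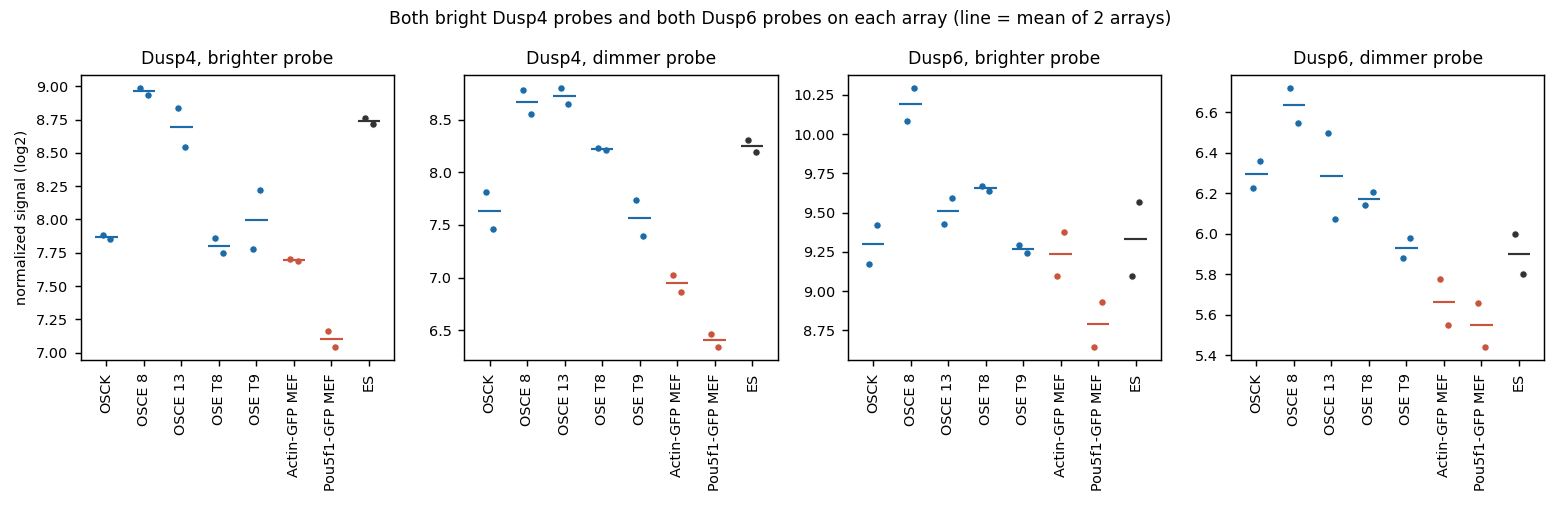
Normalized signal (log2) on each array for the brighter and the dimmer probe of Dusp4 and of Dusp6, with iPS lines (blue), MEFs (red) and ES cells (grey) along the horizontal axis; points are arrays and lines are means of 2. Both Dusp4 probes are high in OSCE 8 and OSCE 13, the OSE T8 level relative to ES cells differs between them, and OSCE 8 is the highest group on both Dusp6 probes.

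Line by line against ES cells, few of the 9 genes were called, and the share was near that of all genes. OSCK had 2 (16.9% of all genes), OSCE 8 had 2 (24.2%) and OSCE 13 had 1 (19.4%). OSE T8 had 2 (20.7%) and so did OSE T9 (20.3%). With median scaling the share of higher genes among all called was 37.7% in place of 50.2% for OSE T8, and 35.2% in place of 52.7% for OSE T9. Egr1 was called lower in OSCK, OSCE 8, OSCE 13 and OSE T8, from -0.81 in OSE T8 to -1.17 in OSCK. The OSE T8 call was lost without ES replicate 2 (adjusted p = 0.0766) or OSE T8 replicate 1 (adjusted p = 0.0816). In OSE T9 Egr1 was at -0.54 (adjusted p = 0.0577), with no overlap between the arrays, and it was called with the replicate number as a block (adjusted p = 0.0117) and with slide as a random block (0.045). Whether the lines differ among themselves was tested with a moderated F over the 5 line means: 5 of the 9 genes were called, against 38.9% of all genes. These were Dusp4 (adjusted p = 2.71e-05), Dusp6 (0.00238), Etv4 (0.00281), Spred1 (0.0318) and Spry4 (0.0349). Etv5 (0.125), Egr1 (0.084), Spry1 (0.0861) and Spred2 (0.599) were not called. Without either OSCE 8 array, 3 genes were called. Within OSCE 13, OSE T8 and OSE T9, which share slides, 3 were called, against 26.7% of all genes: Dusp4 (0.0007), Etv4 (0.00259) and Spred1 (0.0418).

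Within a slide set, the OSE lines against OSCE 13 gave 3 called genes (20.2% of all genes): Dusp4 lower at -0.79 ± 0.12, Etv4 higher by 0.48 ± 0.12 (adjusted p = 0.0104) and Spred1 higher by 0.53 ± 0.15 (adjusted p = 0.0211). Without either OSCE 13 array, the Etv4 (adjusted p 0.0514 and 0.102) and Spred1 (0.184 and 0.0606) calls were lost. With median scaling the share of higher genes among all called here was 31.2% in place of 50.5%. The Spred1 call was also lost with median scaling (adjusted p = 0.208) and with no detection filter (0.0557). The second Spred1 probe gave 0.46 (adjusted p = 0.0753). Of 15 fibroblast markers, 9 were called higher and 2 lower in the OSE lines than in OSCE 13, among them Lum (12.4-fold higher), Dcn (7.21-fold higher) and Thy1 (2.69-fold lower), while the sums of their signal overlapped, at 21050 to 29540 against 25450 to 30060. Their part in these values was not tested. OSCE 8 against OSCK gave 2 (17.4% of all genes), Dusp4 and Dusp6, both higher, and for Spry4 -0.50 (adjusted p = 0.0638), which was called with the replicate number as a block (0.0152) and with slide as a random block (0.024). In OSCE 8, summed signal of 13 pluripotency markers was 15970 to 16400, against 34010 to 34110 in OSCK and 31800 to 31870 in ES cells, and that of 9 epiblast and early mesoderm markers 17180 to 18860, against 10520 to 11550 in OSCK and 12100 to 12840 in ES cells. Their part in the Dusp values was not tested. Between Actin-GFP and Pou5f1-GFP MEFs 1 gene was called (11.5% of all genes, 5.32% higher), Dusp4, higher by 0.59 ± 0.14 (adjusted p = 0.0115) and by 0.54 on the second probe (adjusted p = 0.0287). The call on the brighter probe was lost without either Actin-GFP array or without Pou5f1-GFP replicate 2 (adjusted p 0.0644 to 0.0966). In these MEFs the summed signal of 6 macrophage markers was 7230 to 7650 with the Actin transgene and 1553 to 1669 with the Pou5f1 transgene, and its part was not tested.

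The order of group means differed from gene to gene within the pathway. Over the 8 group means, Etv4 correlated with Spry4 at r = 0.99 and with Etv5 at r = 0.958. Over the 6 means of lines and ES cells alone, r was 0.891 for Etv4 with Spry4 and -0.035 for Etv4 with Etv5. Dusp4 and Dusp6 gave 0.749 over 8 means and 0.509 over 6. These are descriptions of means that share slides and normalization. The genes most like each member over the 8 means were sought among 5658 genes that span at least 1 on log2. They were Dpy30 and Nhp2 for Etv5 (r = 0.999 for both) and Dhodh for Etv4 (0.996) and for Spry4 (0.993). For Egr1 it was Plscr2 (0.989), for Dusp4 Ktn1 (0.977) and for Dusp6 Ran (0.957). These r were picked as the highest among 5658 genes. For Etv5, Etv4 and Spry4 both MEF means lay well below all others, so that split weighs most in r.

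Other genes of the pathway were taken from lists by function, chosen with earlier results of these data known. Of 40 other ERK feedback and early target genes, 31 were tested. In iPS lines against ES cells 3 were higher (10.8% of all genes), 16 lower (11.2%) and 12 not called, with a median of -0.34 against 0.01 over all genes. The lower ones were led by Lif, a cytokine gene (-1.60 ± 0.09; adjusted p = 8.27e-09), Plaur, the urokinase receptor (-1.36 ± 0.11; adjusted p = 2.47e-07), Egr2, a relative of Egr1 (-1.29, detected on 1 of 10 line arrays), and Fosl1, a partner in AP-1 (-1.20, detected on 6 of 10). The 3 higher ones were Etv1, another PEA3 factor (0.43 ± 0.11; adjusted p = 0.00938), Bhlhe40 (0.30; adjusted p = 0.0322) and Flrt3 (0.28; adjusted p = 0.0431). Lif was among the 4 widest in OSCK (-2.08), OSCE 8 (-1.24), OSCE 13 (-1.58) and OSE T9 (-1.64), while Plaur led in OSCE 8 (-1.36) and OSE T8 (-1.83). The counts of higher and lower genes against ES cells were 2 and 12 in OSCK, 4 and 10 in OSCE 8, 3 and 7 in OSCE 13, 1 and 15 in OSE T8, and 0 and 16 in OSE T9. The shares of all genes that were higher and lower were 8.13% and 8.80% in OSCK, 11.6% and 12.5% in OSCE 8, 9.77% and 9.65% in OSCE 13, 10.4% and 10.3% in OSE T8, and 10.7% and 9.61% in OSE T9. The higher ones were Ccnd1 and Flrt3 in OSCK, Bhlhe40, Dusp2, Flrt3 and Atf3 (not above background in either group) in OSCE 8, Bhlhe40, Fos and Etv1 in OSCE 13, and Etv1 in OSE T8. Within slides, OSE lines against OSCE 13 gave 0 higher (10.2% of all genes) and 15 lower (9.99%), led by Dusp5, a nuclear ERK phosphatase (-1.19 ± 0.10; adjusted p = 1.35e-06). Of the 15 fibroblast markers, 9 were higher and 2 lower in this comparison, and their part in these counts was not tested. OSCE 8 against OSCK gave 9 higher (8.56%) and 1 lower (8.84%), Fosl2 (-0.79), with Dusp5 again the widest (1.02 ± 0.12; adjusted p = 1.93e-05).

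Between MEFs and ES cells, 11 of the 31 were higher (30.7% of all genes), 13 lower (30.3%) and 7 not called, with a median of -0.19. The widest were Epha2, an ephrin receptor (-2.29), Fos (2.26), Flrt3 (2.15) and Hbegf, an EGF receptor ligand (-2.04). In the iPS lines against MEFs 9 were higher and 12 lower (35.0% of all genes each). The widest fitted differences were those of Egr2 (-2.38, detected on 1 of 10 line arrays, so that background sets its size), Fos (-2.17), Epha2 (1.96) and Flrt3 (-1.87).

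Of the cascade itself, 12 of 24 tested genes were called in MEFs against ES cells (61.0% of all genes), 6 in lines against ES cells (22.0%) and 17 in lines against MEFs (70.0%). Of them, 7 were higher and 5 lower in MEFs against ES cells, 3 and 3 in lines against ES cells, and 9 and 8 in lines against MEFs. The medians were -0.07, 0.00 and 0.07. The 5 lower in MEFs were Gab1, Rps6ka1, Frs3, Hras and Nras. In the lines against ES cells the 3 higher were Braf, Shc1 and Mapk3 and the 3 lower Map2k1, Gab1 and Rasa1. Gab1, an adaptor downstream of receptors, was at -2.59 in MEFs against ES cells (adjusted p = 4.86e-10) and 2.14 higher in the lines than in MEFs. Braf, a Raf kinase, was 0.69 higher in the lines than in ES cells (adjusted p = 0.00238), and Map2k1, the kinase MEK1, was -0.67 in the same comparison (adjusted p = 0.03), with overlapping arrays. Of 11 tested ETS factors and repressors, 6 were higher and 2 lower in MEFs against ES cells (30.7% and 30.3% of all genes), with a median of 0.59, the lower ones being Elf3 and Gabpa. In the lines against MEFs those 2 were higher and 8 lower (35.0% of all genes each), and against ES cells 0 were higher and 2 lower (10.8% and 11.2%), Elf1 (-0.68; adjusted p = 0.00011) and Ets2 (-0.49; adjusted p = 0.00682). Ets2 was 1.34 higher in MEFs than in ES cells, opposite in direction to Etv4 and Etv5. Of 11 tested FGF ligands and receptors, 3 were higher and 5 lower in MEFs against ES cells (30.7% and 30.3% of all genes), and 2 were higher and 4 lower in lines against ES cells (10.8% and 11.2%). In MEFs the higher ones were the receptors Fgfr1, Fgfr2 and Fgfrl1 and the lower ones the ligands Fgf2, Fgf4, Fgf10, Fgf15 and Fgf17. In the lines the higher ones were Fgf5 and Fgf8 and the lower ones Fgf2, Fgf4, Fgf17 and Fgfr2. Fgf4 was at least 3.96-fold lower in MEFs, where it was not above background, than in ES cells. In the lines it was -0.64 ± 0.17 from ES cells (adjusted p = 0.0117), and Fgf5, a marker of the epiblast, was 1.99 ± 0.13 higher (adjusted p = 2.97e-08). OSCE 8, the line with the highest Dusp6, had Fgf8 at least 11.7-fold above ES cells, where it was not above background, Fgf5 3.69 higher and Fgf4 at -1.64. The part of these ligands in the Dusp6 level was not tested.

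**Figure D4:**
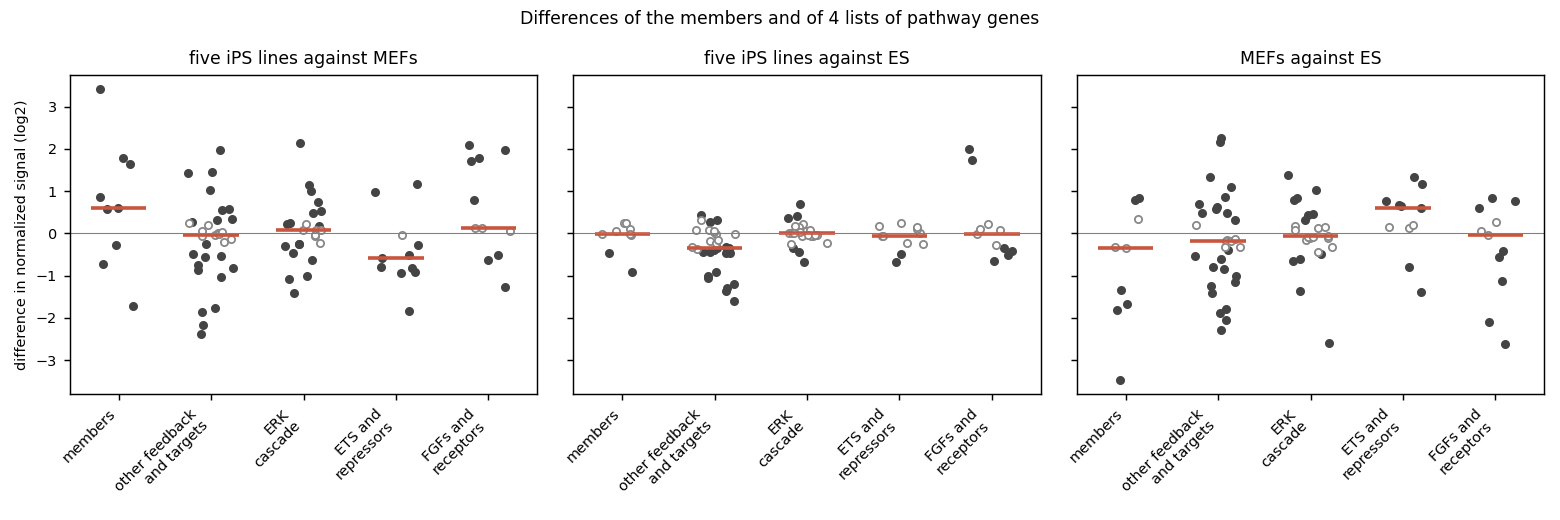
Difference in normalized signal (log2) of the 9 tested genes (labelled members) and of every tested gene of 4 other lists, in 3 comparisons; each point is a gene, filled where the adjusted p is under 0.05 and open otherwise, and the red line is the median of a list. For iPS lines against ES cells the list of other feedback and target genes lies mostly below 0, with a median of -0.34, and the 9 genes lie around 0.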

How the data were processed

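Signal intensity per probe on a linear scale was read from the raw table that the authors exported from BeadStudio without normalization, per the file headers. The deposited detection score of each probe is a fraction, 1 minus its detection p-value, per the file headers. A further 80 columns of per-sample values were not used. Nor was the authors' normalized intensity table: 225 of its 46632 probe numbers occur in the raw table, with a Spearman correlation of -0.069 on the first array.

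From the deposited intensity, log2 levels were computed with limma 3.58.1 in R 4.3.3 by normal-exponential background correction (offset 16) and quantile normalization. The brightest probe represented a gene, kept if detected on at least 2 arrays, which left 15642 of 32089 genes. A mean per group was fitted over 16 arrays (8 residual and 6.23 prior degrees of freedom). Replicate arrays correlated at 0.989 or higher. Calls use a Benjamini-Hochberg adjusted p under 0.05. Other probes of a gene were tested in the same fit over all probes that passed the filter. The fit was also run on simulated arrays with independent errors. Those lack the correlation of same-numbered arrays given below, so they cannot test a fit without a block. A gene not detected in 1 group is given as a bound against the lowest level of any detected probe of each array. Slides were read from the array names.

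Members and lists were chosen with earlier results of these data known. Named genes of the other lists are up to 4 called genes with the widest difference in a comparison, and every gene where a count of 5 or fewer is given. The genes most alike are those with the highest Pearson correlation of group means. Replicates measure the spread within a line, and lines as replicates were an alternative. Others were background corrections, scaling, filters, probe rules, blocks, leaving out each array, and the lines that share slides with ES cells.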

Additional observations from a re-analysis of the deposited data

Results flagged for a closer look

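Of the 9 tested genes, 5 differed among the 5 iPS lines by a moderated F test of the line means. The adjusted p was 2.71e-05 for Dusp4, 0.00238 for Dusp6, 0.00281 for Etv4, 0.0318 for Spred1 and 0.0349 for Spry4. On the brightest probes, the span of the 5 line means was 1.16 on log2 for Dusp4, from OSE T8 to OSCE 8, and 0.92 for Dusp6, from OSE T9 to OSCE 8. It was 0.75 for Etv4 and 0.70 for Spry4, both from OSCE 8 to OSE T9, and 0.69 for Spred1, from OSCE 13 to OSCE 8. On the second Dusp4 probe the line means ran from 7.57 in OSE T9 to 8.73 in OSCE 13. On the second Dusp6 probe they ran from 5.93 in OSE T9 to 6.635 in OSCE 8, a narrower span than on the brightest. Lines on different slides enter the F test, and within OSCE 13, OSE T8 and OSE T9 alone Dusp4, Etv4 and Spred1 were called. With 2 arrays in each group no array could be tested as an outlier.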

How the results depend on the processing

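Unless stated otherwise, values are counts of the 9 genes called. Median scaling gave 1 for OSE T9 against ES cells, and no detection filter gave 3 among the 5 lines. The mean of all probes gave 3 for OSCE 13 against ES cells and 2 between the MEF types. For lines against ES cells, lines as replicates gave 0 and OSCK with OSCE 8 alone gave 1. In that last setting Spry1 was -0.0454 on log2 and changed sign. So did Spred1 with median scaling (-0.00497) and with the mean of all probes (-0.0254), and Etv5 with the mean of all probes (0.0659). None of 63 sign changes among 2520 member values touched a called value.

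Leaving out 1 array gave 6 to 7 for MEFs against ES cells, 1 to 2 for lines against ES cells and 8 to 9 for lines against MEFs. Against ES cells, OSCK and OSCE 8 stayed at 2, OSCE 13 gave 1 to 2, OSE T8 1 to 3 and OSE T9 1 to 3. OSE lines against OSCE 13 gave 1 to 4, OSCE 8 against OSCK 2 to 3, the MEF types 0 to 1 and the test among lines 3 to 6. The log2 difference of lines from ES cells then ran from -0.23 to 0.44 for Spry1, from -0.14 to 0.12 for Spry4, from -0.00416 to 0.12 for Spred1 and from -0.10 to 0.0611 for Etv4. For OSCE 13 against ES cells it ran from -0.0151 to 0.66 for Spry1 and from -0.0547 to 0.42 for Dusp6.

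Over all genes, lines as replicates called 115, against 3447 in the reported fit, for lines against ES cells, and 5011, against 9539, for MEFs against ES cells. Without an ES array, lines against ES cells called 2076 or 2057, and OSE T9 against ES cells 2027 (without ES replicate 2), against 3176. OSCK against ES cells called 1740 without OSCK replicate 2, against 2647, and OSCE 8 against OSCK 1770 to 1780 without OSCK replicate 1 or an OSCE 8 array, against 2721. OSE lines against OSCE 13 called 1743 or 1901 without an OSCE 13 array, against 3154, and the MEF types 1129 or 1140 without the first array of either type, against 1795.

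With the replicate number as a block, as with slide as a random block (correlation 0.196), 2 genes were called between the MEF types (Dusp6 beside Dusp4, adjusted p = 0.022 and 0.0277) and 8 between MEFs and ES cells. Deviations of same-numbered arrays correlated from 0.0984 to 0.430 over 28 pairs of groups, above 0.1 in 27, so each array deviated with those of its own number. Within a slide set, same-numbered arrays also share a slide (lowest correlation 0.138), and the reported fit has no block. Both blocks also called Egr1 lower in OSE T9 than in ES cells and Spry4 lower in OSCE 8 than in OSCK, and each gained 5 calls of single genes in pairwise comparisons and lost none. Among the 5 lines the replicate block called 7. The authors' normalized table was not run as an alternative, as its probes could not be named. With 2 arrays per group, small differences were not detectable, and signals near background, such as those of Spry1 and Spred2, are the least certain.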
